A study of Caenorhabditis elegans with 9 samples.

Results

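The genes described here encode the mitochondrial respiratory chain and ATP synthase from the nuclear genome of Caenorhabditis elegans. They were taken by name from the deposited gene table: every gene outside the mitochondrial chromosome whose symbol starts with nuo, nduf, sdha, sdhb, sdhd, ucr, cox, cyc, atp, asb or asg followed by a number, together with mev-1, gas-1, lpd-5 and isp-1. The rule found 38 of the 46778 genes in the table. They comprise 12 genes of complex I, 5 of complex II, 7 of complex III, 2 for cytochrome c, 4 for the assembly of complex IV and 8 of ATP synthase. RNA was sequenced from 3 groups of 3 libraries each: P-bodies sorted from oocytes, dissected whole oocytes and extracts of whole animals. All groups came from females of the same strain, which carried fog2, car1:GFP and pgl1:RFP. The labels give L4 and oocyte arrest as the stage and day 3 as the time for every sample. P-bodies were selected by what the labels call FAPS, oocytes by dissection, and whole animals by neither, so that the whole-animal libraries hold somatic and germline RNA together. Debris was spun out of the oocyte and whole-animal extracts and not out of the P-body extracts. The labels do not say whether replicates came from separate cultures or animals, and the p-values therefore speak only of how much these samples varied, a variation that can be technical.

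In the respiratory chain, complex I takes electrons from NADH and complex II takes them from succinate. Complex III passes them to cytochrome c, complex IV passes them on to oxygen, and ATP synthase uses the resulting proton gradient to make ATP. Most subunits are encoded in the nucleus, translated in the cytosol and imported, while a few core subunits are encoded and transcribed inside the mitochondrion. Oocytes carry the mitochondria that the embryo inherits. P-bodies are cytoplasmic granules of RNA and protein that hold mRNAs outside translation, and CAR-1 is an RNA-binding protein of these granules. fog-2 mutants with 2 X chromosomes make no sperm, and their oocytes arrest until mating.

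The libraries held 27946955 to 78685226 counts, of which 3226465 to 54937023 fell on protein-coding genes. Ribosomal RNA took from 29.8% to 38.04% of the counts of P-body libraries, from 86.8% to 88.8% of those of oocytes and from 91.4% to 91.7% of those of whole animals. Changes are therefore given on the TMM scale, which sets the typical gene to no change, and levels as TMM-scaled CPM (counts scaled to a common library size). With plain library totals the median gene moved up by 2.50 on the log2 scale in P-bodies against oocytes, at 0.68 in oocytes against whole animals and by 3.18 in P-bodies against whole animals. Each direction below is relative to the typical gene and is not an amount per cell or per granule. Of the labelled cell types, the 10 oocyte markers summed to 2524 to 2779 CPM in the oocyte libraries, 3333 to 3488 in P-bodies and 2142 to 2422 in those of whole animals. The 10 intestine markers summed to 739 to 2562 CPM in oocytes, 402 to 703 in P-bodies and 15280 to 18800 in whole animals. The 9 muscle markers summed to 76.7 to 212, 22.3 to 30.9 and 416 to 595 CPM in the same order. The 8 neuron markers summed to 12.99 to 15.4, 11.2 to 14.3 and 32.04 to 39.2 CPM, and flp-1 and rab-3 were at 0 in oocytes. The 7 hypodermis markers summed to 5.21 to 62.0, 2.70 to 5.70 and 111 to 155 CPM, with dpy-7 at 0 in oocytes. The 6 markers of gonadal sheath and spermatheca summed to 11.6 to 20.5, 0.555 to 0.751 and 11 to 14.7 CPM, and the 8 sperm markers to at most 0.0864, at most 0.0869 and 0.278 to 3.38 CPM. In bulk samples of this kind, fewer cells of a type and less RNA per cell cannot be told apart.

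Of the 38 genes, 14 overlap another protein-coding gene, 4 on the same strand (nuo-1, nuo-3, ucr-2.1 and atp-4) and 11 on the opposite strand (asg-1, cyc-1, nduf-5, nduf-6, nuo-5, nuo-6, cox-15, cyc-2.2, ucr-2.1, ucr-2.2 and ucr-2.3). The strand setting of the counting is not given in the sources used here, so the counts of these genes are uncertain. Counts were deep enough to test 37 of the 38 genes, and 36 of them had at least 10 counts in every library. The untested gene was cyc-2.2, which had 0 counts in all 3 oocyte libraries, 1, 0 and 5 in the P-body libraries and 6, 0 and 6 in the whole-animal libraries. A limit of 3 counts corresponds to 0.0592 to 0.149 TMM-scaled CPM in the oocyte libraries. The other gene with a library at 0 was cox-17, which had 40 counts over all oocyte libraries, 690 in P-bodies and 15 in whole animals. Per length, atp-2 was the most abundant of the 38 in every group, with a mean of 232.7 TPM, a count per length scaled to a common total, in oocytes, 413.4 in P-bodies and 147.7 in whole animals. It encodes the catalytic beta subunit of ATP synthase. Next in oocytes came atp-3 with 71.8 TPM, atp-5 with 67.3 and cyc-2.1 with 66.7, and at the low end stood cox-10 with 1.47 and cyc-2.2, which was listed at 0. Because TPM is scaled over all genes, including ribosomal RNA, only the order within a group is compared here. In P-bodies cyc-2.1 stood at rank 18 of the 38, against rank 4 in oocytes and rank 3 in whole animals, while sdha-2 stood at rank 2 in P-bodies and rank 6 in oocytes.

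**Figure D1:**
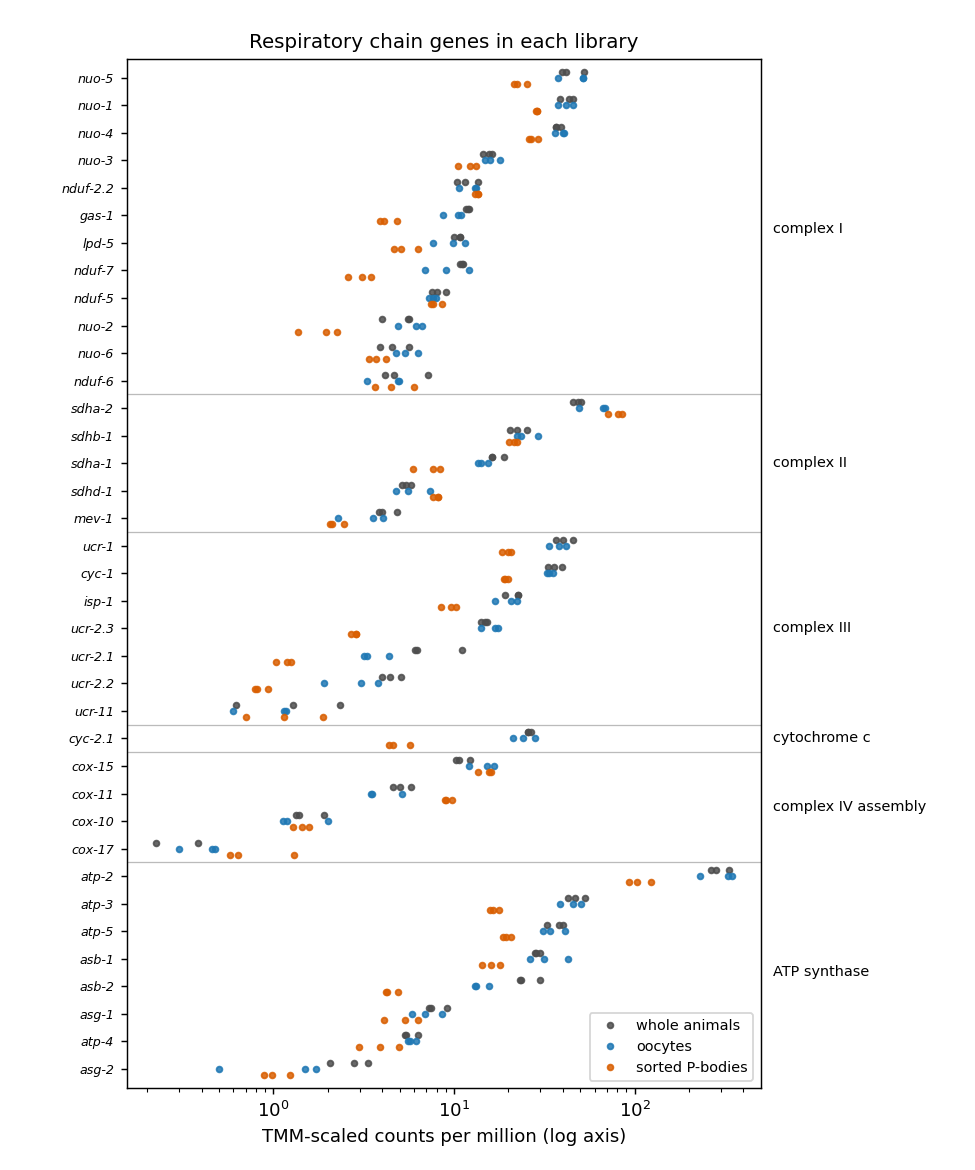
TMM-scaled CPM (log axis) of 37 respiratory chain genes in each of the 9 libraries, grouped by complex and ordered by the oocyte mean; 1 point is 1 library, 1 whole-animal library of cox-17 lies at 0 and is not drawn, and cyc-2.2 was not tested and is left out. For 24 genes every P-body point lies left of every oocyte point on this scale, as for 27.6% of all genes tested; with plain library totals no gene was called lower in P-bodies.

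In P-bodies against oocytes, 24 of the 37 tested genes were lower, 3 were higher and 10 were not called (edgeR's quasi-likelihood test, Benjamini-Hochberg adjusted p under 0.05 over 10162 genes). Over all genes tested 28.8% were lower and 26.7% were higher. At an unadjusted p under 0.05 the members numbered 25 lower and 3 higher, and DESeq2 called 24 and 3. In the same comparison 8 of 10 intestine markers, 8 of 9 muscle markers and 4 of the 5 tested sheath markers were lower too. Of the 5 tested hypodermis markers 3 were lower and 0 higher, and of the 8 neuron markers 0 were lower and 1 higher. With plain library totals 7 intestine markers were higher and 0 lower, 2 muscle markers higher and 4 lower, and 0 sheath markers higher and 2 lower. On that scale 1 hypodermis marker and 7 neuron markers were higher, and 0 of either list lower. The part of such cells, and of the share of ribosomal RNA, in the members' values was not tested. The median log2 fold change of the 37 genes was -0.59, beside -0.06 for all genes. With plain library totals 34 of the 37 were higher and 0 lower, where 79.6% of all genes were higher and 3.35% lower, and the median of the 37 was 1.94 beside 2.44 for all genes. In P-bodies against whole animals, 25 were lower, 5 higher (4 without cox-17) and 7 not called, where 38.9% of all genes were lower and 27.9% higher, and the median was -0.90 beside -0.18 for all genes. Library totals made 36 of the 37 higher and 0 lower in that comparison, with 76.6% of all genes higher and 9.73% lower. In oocytes against whole animals, 2 were lower, 0 higher and 35 not called, where 12.5% of all genes were lower and 0.709% higher. At an unadjusted p under 0.05, 4 genes were lower and 2 higher there, and DESeq2 called sdha-2 and cox-15 higher. The median in that comparison was -0.08 beside 0.00 for all genes, and with library totals 25 were higher and 0 lower, beside 51.9% and 11.8% of all genes. The 3 comparisons share libraries, so their values are given side by side and are not independent of each other.

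**Figure D2:**
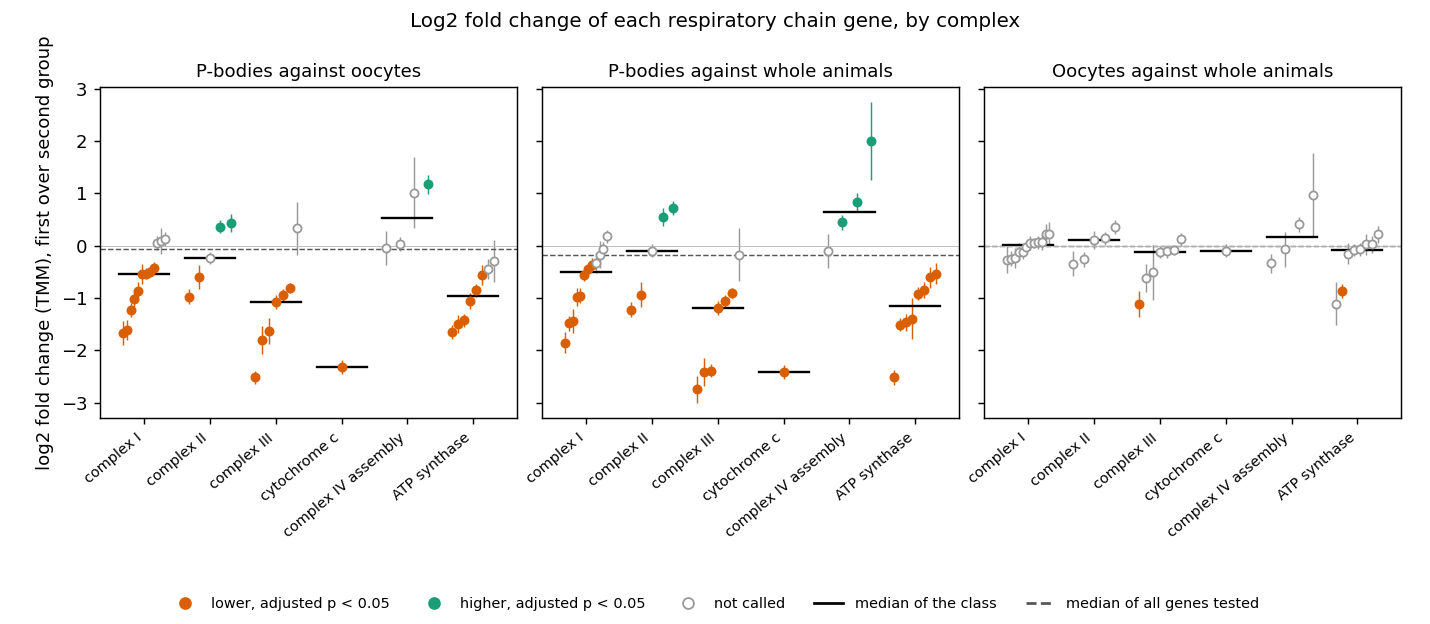
Log2 fold change with its standard error (vertical axis, TMM scale, first group over second) of each tested respiratory chain gene, by complex, in the 3 comparisons; filled points passed an adjusted p of 0.05, black bars are class medians and the dashed line is the median of all genes tested. Complex III and ATP synthase have medians of -1.08 and -0.96 in P-bodies against oocytes and the complex IV assembly genes 0.53 (0.04 without cox-17), all relative to the typical gene; with plain library totals the medians of all classes lie above 0.

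Complex I genes were lower in P-bodies than in oocytes for 9 of 12 members, with a median log2 fold change of -0.54, and none was higher. The fall was -1.67 ± 0.23 (SE) for nuo-2, -1.61 ± 0.19 for nduf-7, -1.23 ± 0.14 for gas-1 and -1.03 ± 0.15 for nuo-5, which encode subunits of the arm that carries electrons from NADH. For nuo-2 (chromosome I, 6530131 to 6531963, WBcel235), the libraries in replicate order stood at 6.18, 6.67 and 4.89 TMM-scaled CPM in oocytes, 1.96, 2.23 and 1.37 in P-bodies and 5.57, 5.61 and 3.97 in whole animals. The P-body libraries lay below all others (adjusted p = 5.28e-05 against oocytes and 0.00014 against whole animals). The gene with the highest level per length in oocytes among these 12, nuo-1 (chromosome II, 11097841 to 11100146), encodes the subunit that binds NADH. It stood at 45.7, 41.9 and 37.4 CPM in oocytes, 28.8, 28.6 and 28.6 in P-bodies and 45.5, 43.5 and 38.5 in whole animals. P-bodies again lay below both groups, at -0.54 ± 0.10 (adjusted p = 0.000699) and -0.57 ± 0.10 (adjusted p = 0.000348). A subunit needed for the assembly and activity of the complex is encoded by lpd-5 (chromosome I, 4372255 to 4373018), with 7.65, 11.6 and 9.83 CPM in oocytes, 6.28, 4.62 and 5.07 in P-bodies and 10.8, 10.01 and 10.7 in whole animals. Its groups did not overlap between P-bodies and either other group, and the log2 fold change was -0.86 ± 0.17 against oocytes (adjusted p = 0.000815). The genes nuo-3, nuo-4 and nuo-6 fell by less, at -0.43, -0.51 and -0.55. On the log2(TPM + 1) scale relative to the median gene nuo-1, nuo-3, nuo-4 and nuo-6 turned to 0.15, 0.26, 0.17 and 0.09 against oocytes, and nuo-1, nuo-3, nuo-4 and nuo-6 to 0.31, 0.48, 0.41 and 0.42 against whole animals. With log2(TPM + 0.1) treated in the same way, no called gene of the whole set turned in P-bodies against oocytes. Without oocyte library 2 the call of nuo-3 was lost (-0.24), and nuo-6 lost its call without oocyte library 2 (-0.46), oocyte library 3 (-0.41), P-body library 2 (-0.47) or P-body library 3 (-0.52). The 3 genes not called were nduf-2.2 at 0.13, nduf-6 at 0.09 and nduf-5 at 0.05. In P-bodies against whole animals 8 of the 12 were lower and 0 higher, the exceptions being nuo-6, nduf-2.2, nduf-5 and nduf-6. There nuo-3 changed by -0.36 and lost its call without oocyte library 2 (-0.24), whole-animal library 1 (-0.31), whole-animal library 3 (-0.33) or P-body library 2 (-0.27). No complex I gene was called in oocytes against whole animals, where their log2 fold changes ran from -0.26 to 0.23.

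Complex II was split between its genes. The 2 genes for the flavoprotein that oxidises succinate went opposite ways in P-bodies. The autosomal sdha-2 (chromosome I, 10683270 to 10685664) stood at 66.4, 68.7 and 49.2 CPM in oocytes, 71.1, 85.3 and 80.8 in P-bodies and 50.2, 48.5 and 45.4 in whole animals. Every P-body library was above all others, with a log2 fold change of 0.37 ± 0.13 against oocytes (adjusted p = 0.0283) and 0.72 ± 0.13 against whole animals (adjusted p = 0.000311). The first of these calls was lost without oocyte library 3 (0.24), P-body library 2 (0.31) or P-body library 3 (0.36), and over all alternatives its adjusted p ran from 3.4e-06 to 0.118. The X-linked sdha-1 (X, 8542867 to 8546021) stood at 15.5, 13.5 and 14.1 CPM in oocytes, 7.66, 8.38 and 5.93 in P-bodies and 18.9, 16.2 and 16.3 in whole animals. Its P-body libraries lay below all others, at -0.97 ± 0.14 against oocytes (adjusted p = 7.16e-05) and -1.23 ± 0.14 against whole animals (adjusted p = 7.91e-06). A membrane anchor subunit is encoded by sdhd-1 (chromosome II, 11049144 to 11049913), which stood at 7.39, 5.53 and 4.796 CPM in oocytes, 8.12, 8.17 and 7.59 in P-bodies and 5.76, 5.39 and 5.15 in whole animals. P-bodies were above both groups in every library, at 0.44 ± 0.17 against oocytes (adjusted p = 0.0415) and 0.55 ± 0.17 against whole animals (adjusted p = 0.0116). The call of sdhd-1 against oocytes was lost without oocyte library 3 (0.31), whole-animal library 3 (0.45) or P-body library 1 (0.43), 2 (0.43) or 3 (0.48), and its adjusted p over all alternatives ran from 6.77e-05 to 0.143. The other anchor subunit, of the cytochrome b type, is encoded by mev-1 (chromosome III, 10334267 to 10335171), known from a mutant sensitive to oxygen. It stood at 4.06, 2.29 and 3.57 CPM in oocytes, 2.45, 2.06 and 2.1 in P-bodies and 4.81, 4.002 and 3.83 in whole animals. P-bodies and oocytes overlapped through oocyte library 2, and the log2 fold change of -0.59 ± 0.23 (adjusted p = 0.0453) lost its call in 14 of 18 alternatives, including each left-out library other than oocyte library 2, with values from -0.67 without P-body library 1 to -0.42 without oocyte library 1. On the log2(TPM + 1) scale relative to the median gene, mev-1 turned to 0.04. Against whole animals mev-1 was lower in every P-body library, at -0.93 ± 0.23 (adjusted p = 0.00328). The iron-sulfur subunit gene sdhb-1 was not called in any comparison, with -0.24 ± 0.12 in P-bodies against oocytes and -0.10 ± 0.12 against whole animals.

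Complex III held the largest fall among the 37 genes in P-bodies against oocytes. In that comparison 6 of its 7 genes were lower and 0 higher, with a median of -1.08, and in P-bodies against whole animals 6 were lower and 0 higher, with a median of -1.19. The core protein gene ucr-2.3 (chromosome III, 879860 to 881506) stood at 17.5, 16.8 and 14.01 CPM in oocytes, 2.70, 2.86 and 2.88 in P-bodies and 14.1, 14.8 and 15.2 in whole animals. P-bodies were far below both groups and the other groups overlapped, with a log2 fold change of -2.51 ± 0.13 against oocytes (adjusted p = 1.44e-08) and -2.39 ± 0.13 against whole animals (adjusted p = 1.46e-08). Its X-linked relative ucr-2.1 stood at 4.36, 3.29 and 3.18 CPM in oocytes, 1.25, 1.19 and 1.04 in P-bodies and 11.1, 6.23 and 6.08 in whole animals. All 3 groups were apart, and ucr-2.1 changed by -1.63 ± 0.25 in P-bodies against oocytes (adjusted p = 0.000133) and by -1.11 ± 0.25 in oocytes against whole animals (adjusted p = 0.0113). The second of these was -0.77 without whole-animal library 1 and no longer called. The deposited span of ucr-2.1 (X, 11968034 to 12021212) takes in other protein-coding genes, among them sams-1 on the same strand, so its counts are uncertain. The third core protein gene, ucr-2.2 (X, 15173904 to 15178145), stood at 1.90, 3.04 and 3.77 CPM in oocytes, 0.931, 0.788 and 0.812 in P-bodies and 4.43, 4.002 and 5.08 in whole animals. Here too the groups did not overlap, and P-bodies were lower, at -1.79 ± 0.27 against oocytes (adjusted p = 9.08e-05), while oocytes against whole animals gave -0.62 ± 0.27 (adjusted p = 0.159). The Rieske iron-sulfur protein is encoded by isp-1 (chromosome IV, 8133789 to 8136055), which stood at 20.8, 22.4 and 16.8 CPM in oocytes, 10.2, 8.49 and 9.57 in P-bodies and 22.6, 22.7 and 19.2 in whole animals. It changed by -1.08 ± 0.13 (adjusted p = 1.56e-05) and -1.19 ± 0.13 (adjusted p = 5.53e-06) in P-bodies against the other groups, with no overlap. Cytochrome c1, the subunit that hands electrons to cytochrome c, is encoded by cyc-1 (chromosome I, 8022674 to 8024422), with 32.7, 35.4 and 33.6 CPM in oocytes, 19.97, 19.1 and 18.9 in P-bodies and 39.5, 32.9 and 35.6 in whole animals. P-bodies lay below both groups, at -0.81 ± 0.10 against oocytes (adjusted p = 1.36e-05). The other core protein gene, ucr-1, changed by -0.94 ± 0.11 against oocytes, and ucr-11, a small subunit with 0.597 to 2.34 CPM in all libraries, was not called.

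Cytochrome c, the mobile carrier between complexes III and IV, is encoded by cyc-2.1 (chromosome IV, 4747901 to 4749113) and cyc-2.2. The libraries of cyc-2.1 stood at 24.2, 28.1 and 21.3 CPM in oocytes, 5.71, 4.39 and 4.61 in P-bodies and 25.8, 25.7 and 26.8 in whole animals. P-bodies were below both other groups in every library, at 4.90 ± 0.706 CPM beside 24.5 ± 3.39 and 26.1 ± 0.623 (SD, n = 3). The log2 fold change was -2.32 ± 0.13 against oocytes (adjusted p = 3.62e-08) and -2.41 ± 0.14 against whole animals (adjusted p = 2.01e-08), and oocytes and whole animals overlapped. For cyc-2.2 only 6 counts in all P-body libraries and 12 in all whole-animal libraries were found, and the level in oocytes was not detectable at this depth.

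Of the 4 genes of the set for the assembly of complex IV, 1 was higher, 0 lower and 3 not called in P-bodies against oocytes, with a median of 0.53, and 3 were higher and 0 lower against whole animals, with a median of 0.64. Among all genes tested 26.7% were higher and 28.8% lower against oocytes, so 1 of 4 higher lay near that share. Against whole animals 27.9% of all genes were higher and 38.9% lower. Without cox-17, which had few counts in oocytes and whole animals and was left out after these were seen, 1 of 3 was higher with a median of 0.04 in the former comparison and 2 of 3 with a median of 0.45 in the latter. Copper delivery to the enzyme needs cox-11 (chromosome IV, 13244324 to 13247160), which stood at 3.5, 3.48 and 5.13 CPM in oocytes, 8.88, 9.77 and 8.97 in P-bodies and 4.998, 4.61 and 5.80 in whole animals. Each P-body library was above all others, at 1.17 ± 0.18 against oocytes (adjusted p = 0.000116) and 0.84 ± 0.18 against whole animals (adjusted p = 0.00114). Haem A synthase is encoded by cox-15 (chromosome II, 11232756 to 11234952), with 15.3, 16.7 and 12.1 CPM in oocytes, 13.5, 15.95 and 15.6 in P-bodies and 12.2, 10.6 and 10.3 in whole animals. P-bodies and oocytes overlapped at 0.04 ± 0.14, and P-bodies were above whole animals in every library, at 0.45 ± 0.14 (adjusted p = 0.0124). Oocytes against whole animals gave 0.41 ± 0.14 for cox-15 (adjusted p = 0.0841), which passed without oocyte library 3 (0.54), as did sdha-2 (0.49). The copper chaperone gene cox-17 had 11, 6 and 23 counts in oocytes, 349, 172 and 169 in P-bodies and 0, 4 and 11 in whole animals. Its log2 fold change of 1.99 ± 0.75 in P-bodies against whole animals (adjusted p = 0.0309) rests on those few whole-animal counts, and the call was lost without whole-animal library 1 (1.46), whole-animal library 2 (2.06) or P-body library 1 (1.55). The haem O synthase gene cox-10 was not called in any comparison, with 1.12 to 2.01 CPM in all libraries.

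No structural subunit of complex IV carries a cox name in the deposited table. Under the newer Ensembl annotation of the same build 13 further genes bear names of this kind, and they are given here apart from the 38. Of these, 9 were lower, 0 higher and 4 not called in P-bodies against oocytes, with a median of -0.57. Over all genes tested 28.8% were lower and 26.7% higher. With plain library totals, where 79.6% of all genes were higher, all 13 were higher, with a median of 1.98. The 7 structural subunits of complex IV among the 13 had 5 lower and 0 higher on the TMM scale, with a median of -0.59. They were cox-4 at -1.08 ± 0.12, cox-5A at -0.59 ± 0.12, cox-5B at -0.50 ± 0.14, cox-6A at -1.48 ± 0.18 and cox-6B at -0.75 ± 0.19, while cox-6C at -0.57 ± 0.39 and cox-7C at -0.26 ± 0.21 were not called. The same 5 were lower in P-bodies against whole animals. Complex IV subunits took 0.0338% ± 0.00387 of protein-coding counts in P-bodies, beside 0.0596% ± 0.00527 in oocytes (SD, n = 3). As a share of all counts the order was reversed, with means of 0.0223% in P-bodies and 0.00655% in oocytes. The 3 further assembly genes had a median of -0.42 in P-bodies against oocytes, where cox-14 was lower at -0.47 ± 0.17 (adjusted p = 0.0321) and cox-18 at -0.42 ± 0.26 (adjusted p = 0.191) and cox-19 at 0.997 ± 0.46 (adjusted p = 0.0804) were not called. Against whole animals cox-19 was higher at 1.16 ± 0.46 (adjusted p = 0.0421), and cox-14 at -0.33 and cox-18 at 0.09 were not called. The alpha subunit of ATP synthase, atp-1, changed by -1.51 ± 0.14 against oocytes (adjusted p = 1.93e-06), beside -1.497 ± 0.17 for the beta subunit gene atp-2.

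ATP synthase was the class with the most counts. In P-bodies against oocytes 6 of its 8 genes were lower and 0 higher, with a median of -0.96, and in P-bodies against whole animals all 8 tested genes were lower, with a median of -1.16; on the log2(TPM + 1) scale relative to the median gene atp-4, asg-1 and asg-2 turned to 0.10, 0.25 and 0.26 in the first comparison and atp-4, asb-1, asg-1 and atp-5 to 0.33, 0.05, 0.23 and 0.02 in the second. The gene atp-2 (chromosome III, 5228417 to 5230536) stood at 344.5, 326.8 and 229.7 CPM in oocytes, 102.7, 123.7 and 92.6 in P-bodies and 334.1, 283.5 and 263.8 in whole animals. P-bodies lay below every other library (adjusted p = 7.5e-06 against oocytes), and the other groups overlapped. The stalk subunit gene atp-3 changed by -1.42 ± 0.12 and the stalk subunit gene atp-5 by -0.85 ± 0.12 against oocytes. Against oocytes atp-4, for coupling factor 6, changed by -0.56 ± 0.19 and lost its call without oocyte library 2 (-0.47), oocyte library 3 (-0.49), P-body library 2 (-0.39) or P-body library 3 (-0.54). Against whole animals atp-4 changed by -0.53 ± 0.20 and lost its call without oocyte library 2 (-0.41), whole-animal library 2 (-0.545), whole-animal library 3 (-0.44), P-body library 2 (-0.36) or P-body library 3 (-0.51). Subunit b, part of the stalk that holds the enzyme still, is encoded by asb-1 (chromosome III, 4594543 to 4595944) and asb-2 (X, 4469743 to 4471476), and asb-1 is known as the germline form. The libraries of asb-1 stood at 42.8, 31.5 and 26.5 CPM in oocytes, 15.9, 17.99 and 14.4 in P-bodies and 29.9, 28.6 and 27.9 in whole animals. Those of asb-2 stood at 15.6, 13.2 and 13.1, at 4.91, 4.17 and 4.26, and at 29.8, 23.1 and 23.4. For asb-1 oocytes and whole animals overlapped, whereas for asb-2 all 3 groups were apart. In P-bodies against oocytes asb-1 changed by -1.06 ± 0.15 (adjusted p = 7.88e-05) and asb-2 by -1.65 ± 0.14 (adjusted p = 5.2e-07). In oocytes against whole animals asb-2 changed by -0.87 ± 0.13 (adjusted p = 0.00113), a call that held in all 18 alternatives run for it relative to the median gene, and asb-1 gave 0.22 ± 0.16 (adjusted p = 0.429). Subunit g is encoded by asg-1 (chromosome I, 8692946 to 8693468) and asg-2 (X, 6841258 to 6842129). The libraries of asg-1 stood at 6.87, 5.82 and 8.61 CPM in oocytes, 6.30, 4.08 and 5.34 in P-bodies and 7.47, 9.17 and 7.25 in whole animals. Those of asg-2 stood at 1.73, 0.498 and 1.5, at 1.23, 0.885 and 0.986, and at 2.05, 3.34 and 2.80, with as few as 10 counts in oocyte library 2. Neither was called in P-bodies against oocytes, where both overlapped, although asg-1 passed without P-body library 1 (-0.59). Against whole animals asg-1 changed by -0.60 ± 0.20 (adjusted p = 0.0167), lost without whole-animal library 2 (-0.47) or P-body library 2 (-0.44), and asg-2 by -1.397 ± 0.39 (adjusted p = 0.00693).

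Summed over each complex, the 38 genes took 0.546% ± 0.0360 of protein-coding counts in oocytes, 0.290% ± 0.0142 in P-bodies and 0.507% ± 0.0200 in whole animals (SD, n = 3). ATP synthase took 0.262% ± 0.0313, 0.0981% ± 0.00894 and 0.246% ± 0.0170 in the same order, with no overlap of P-bodies with either other group. Complex I took 0.124% ± 0.00320, 0.0766% ± 0.00437 and 0.114% ± 0.000915, and complex III took 0.0684% ± 0.00307, 0.0309% ± 0.00291 and 0.0695% ± 0.00277. Complex II took 0.0652% ± 0.00537 in oocytes and 0.0666% ± 0.00157 in P-bodies, with overlapping libraries, and 0.0534% ± 0.00190 in whole animals, below all the others. Within it the rise of sdha-2 stood beside the fall of sdha-1. Cytochrome c took 0.0145% ± 0.00115, 0.00279% ± 0.000526 and 0.0144% ± 0.000789. The complex IV assembly genes took 0.0122% ± 0.000385, 0.0150% ± 5.78e-05 and 0.00982% ± 0.000394. Every P-body library lay above every oocyte library, also without cox-17 (0.0142% to 0.0147% beside 0.0116% to 0.0123%). For ATP synthase, complex I, complex III and cytochrome c the order was the reverse. Of the assembly genes in this sum only cox-11 was called higher against oocytes, while cox-10 (-0.04) and cox-15 (0.04) overlapped with oocytes. A sum without cox-11 was not made. The further assembly genes cox-14 (-0.47, lower), cox-18 (-0.42, not called) and cox-19 (0.997, not called) are not part of it. As a share of all counts, where ribosomal RNA is part of the total, every complex took more in P-bodies than in oocytes in the mean.

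**Figure D3:**
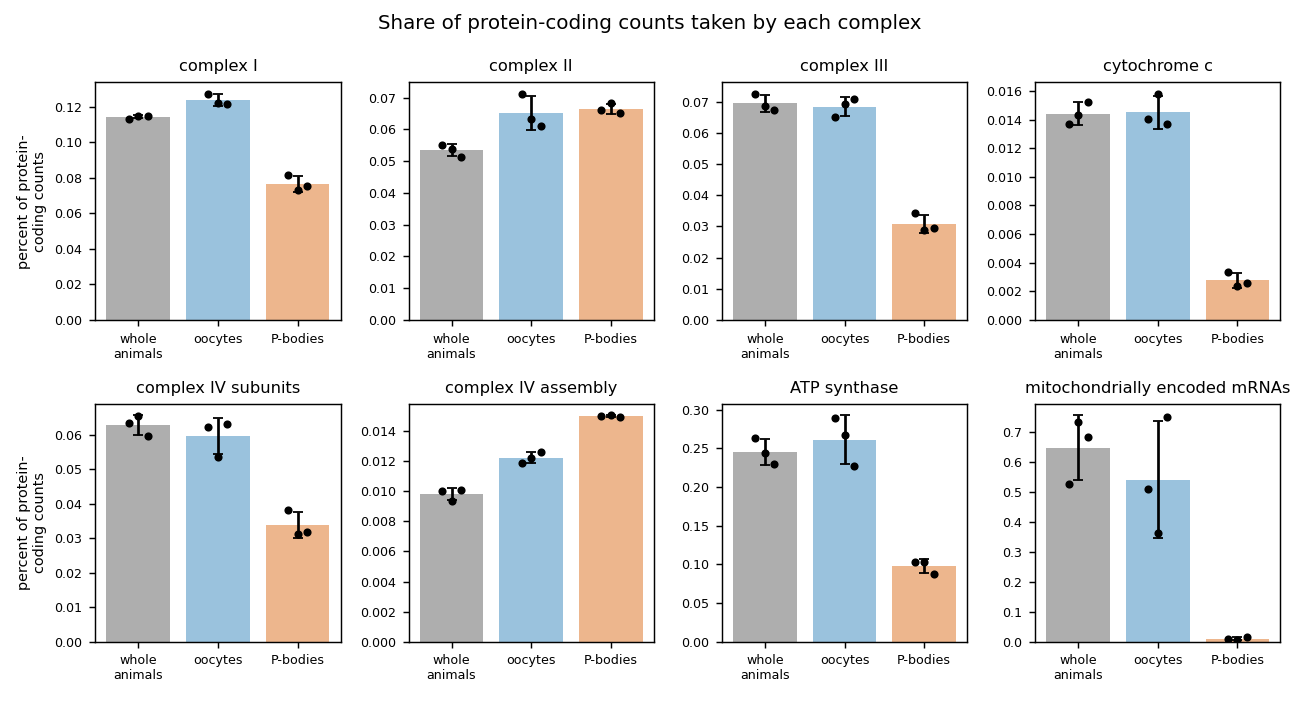
Percent of protein-coding counts taken by each complex (vertical axis, starting at 0) in the 3 groups; bars are means, error bars SD over 3 libraries and points single libraries, with the complex IV subunits named in the newer annotation and the mitochondrially encoded mRNAs added. P-bodies are lowest for complexes I and III, cytochrome c, complex IV subunits and ATP synthase and highest for complex IV assembly, where only cox-11 was called higher against oocytes. As a share of all counts the mean of every nuclear complex is higher in P-bodies than in oocytes.

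All 6 X-linked genes of the set have an autosomal relative in it, so the ratio of the copies within a library could be compared without any scaling between libraries. In the C. elegans germ line the X chromosome is known to be kept largely silent for much of development. Whether this holds in the oocytes sampled here, or bears on the values below, was not tested. In oocytes against whole animals both called falls, asb-2 and ucr-2.1, were X-linked. The 6 X-linked genes had a median log2 fold change of -0.74 there, beside -0.39 for the 1267 X-linked genes tested, of which 24.2% were lower, and the 31 autosomal members had -0.03. The log2 ratio of TPM of asb-2 over asb-1 was -1.67, -1.38 and -1.16 in oocytes, -1.82, -2.28 and -1.93 in P-bodies and -0.17, -0.43 and -0.39 in whole animals. The asb-1 transcript thus outnumbered that of asb-2 by a factor of 2.65 in oocytes, 4.03 in P-bodies and 1.25 in whole animals. For asg-2 over asg-1 the ratios were -1.996, -3.54 and -2.58 in oocytes, -2.45, -2.34 and -2.53 in P-bodies and -1.92, -1.47 and -1.45 in whole animals. Oocytes lay below whole animals in both pairs, and P-bodies overlapped with oocytes only for asg.

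The NADH arm subunit that gas-1 encodes (X, 15586812 to 15590397) is also encoded by nduf-2.2 (chromosome III, 6465157 to 6467208). In CPM gas-1 stood at 10.9, 10.6 and 8.66 in oocytes, 3.89, 4.85 and 4.07 in P-bodies and 11.6, 11.95 and 12.2 in whole animals, and nduf-2.2 at 10.6, 13.2 and 13.1, at 13.1, 13.6 and 13.6, and at 10.4, 11.6 and 13.6. The P-body level was below both groups for gas-1 (adjusted p = 1e-05 against oocytes) and overlapped them for nduf-2.2. Their log2 TPM ratio averaged -0.42 in oocytes, -1.78 in P-bodies and -0.14 in whole animals, with oocytes and whole animals overlapping. For sdha-1 over sdha-2 it averaged -2.27, -3.61 and -1.65, and no groups overlapped, so sdha-2 led by a factor of 4.81, 12.2 and 3.14. The ucr pairs went the other way in P-bodies. Over ucr-2.3, ucr-2.1 averaged -2.199 in oocytes, -1.28 in P-bodies and -0.96 in whole animals, and ucr-2.2 averaged -2.56, -1.77 and -1.72. In both, oocytes lay below P-bodies and below whole animals with no overlap, and P-bodies overlapped with whole animals.

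Across the 6 pairs the mean ratio of the X-linked copy was lower in oocytes than in whole animals for all, without overlap for 5, the exception being gas-1. In P-bodies against oocytes it was lower for asb, gas-1 and sdha, higher for both ucr pairs and overlapping for asg. Both ucr pairs share ucr-2.3, which itself changed by -2.51 in that comparison, so the 6 pairs are not independent of each other. The counts of ucr-2.1 are uncertain, since its deposited span takes in other genes. Its ratios over ucr-2.3 in whole animals were -0.32, -1.26 and -1.29 in replicate order. For asg-2 there were 10 counts in oocyte library 2. Each difference without overlap had p = 0.1 in a two-sided exact permutation test, the smallest that 3 against 3 libraries allow, and 0.15 after Benjamini-Hochberg adjustment over 21 tests, so none passed 0.05. Leaving out 1 library turned the asg difference in P-bodies against oocytes, whose mean was 0.27 and ran from -0.15 to 0.62. In oocytes against whole animals all 10 intestine markers, all 9 muscle markers and 7 of 8 neuron markers were lower, beside 12.5% of all genes tested. None of the 5 tested hypodermis markers (median -2.25) or the 5 tested sheath markers (median -0.31) was called. The part of somatic cells in the ratios was not tested. Near-identical stretches between copies could also split reads in a way that these counts cannot show.

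**Figure D4:**
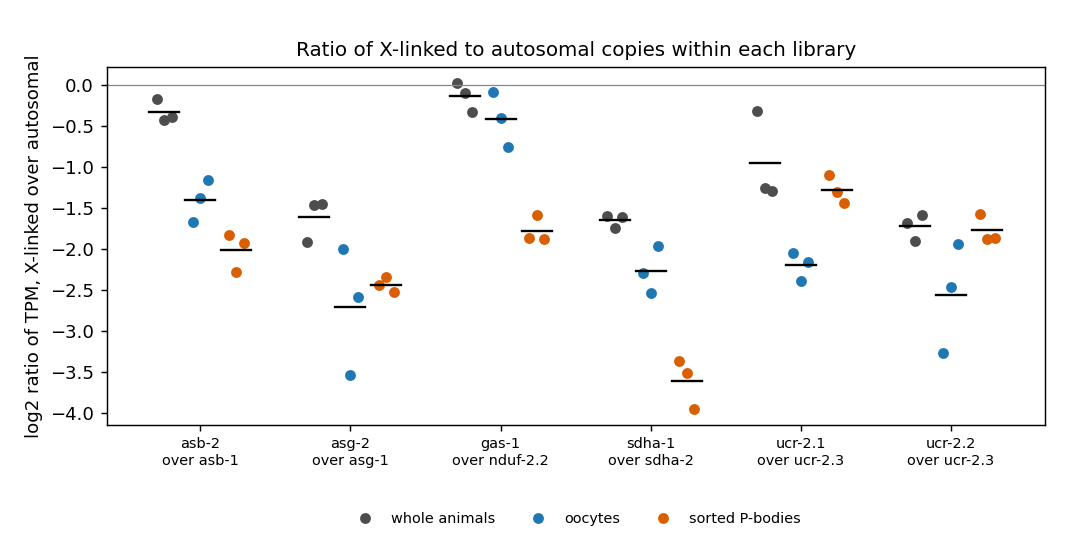
Log2 ratio of TPM of the X-linked over the autosomal copy (vertical axis) within each library for 6 pairs; points are libraries, in replicate order from left to right, and bars are means of 3. Oocyte points lie below whole-animal points in 5 pairs, and P-body points lie below oocyte points for asb, gas-1 and sdha and above them for both ucr pairs, which share ucr-2.3.

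The partner subunits encoded in the mitochondrion gave a separate measurement. All 12 mitochondrially encoded mRNAs were lower in P-bodies than in oocytes, with a median log2 fold change of -5.53, and all 12 were also lower with plain library totals, with a median of -3.001. They took 0.542% ± 0.196 of protein-coding counts in oocytes, 0.0106% ± 0.00440 in P-bodies and 0.648% ± 0.109 in whole animals (SD, n = 3). For ctc-3, a core subunit of complex IV, the mean fell from 262.8 CPM in oocytes to 4.71 in the granules, with a log2 change of -5.80 ± 0.26 (adjusted p = 2.2e-08). None of the 12 was called in oocytes against whole animals, where the median was -0.36.

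Other nuclear genes of mitochondrial function were read from lists chosen by role, beside 26.7% higher and 28.8% lower over all genes tested in P-bodies against oocytes. Of 15 genes of the tricarboxylic acid cycle, which feeds complexes I and II, 9 were lower and 2 higher in P-bodies against oocytes, with a median of -0.78; suca-1, for succinyl-CoA synthetase, changed by -2.59 ± 0.16, idhb-1, for isocitrate dehydrogenase, by -2.12 ± 0.19 and aco-2, for aconitase, at -2.03 ± 0.13, while sucg-1, also for succinyl-CoA synthetase, rose by 0.88 ± 0.12 and idhg-1 by 0.35 ± 0.10. The nucleotide carrier ant-1.1, which exchanges ATP for ADP across the inner membrane, changed by -1.55 ± 0.13 and was the 1 tested gene of 4. Of 12 genes for protein import, 4 were higher and 1 lower, with a median of 0.54. The channel of the outer membrane, tomm-40, rose by 1.26 ± 0.11 and tin-44 by 0.92 ± 0.17, while timm-23, the channel of the inner membrane, changed by -1.51 ± 0.15. Of 66 mitochondrial ribosomal proteins, 16 were higher and 25 lower, with a median of -0.17, from mrps-6 at -2.02 to mrps-18B at 1.06. The share of higher genes in the import and ribosomal lists lay near that of all genes tested. Of the matrix chaperones, hsp-6 changed by -0.55 ± 0.14 and hsp-60 was not called. With plain library totals 13 of the 15 cycle genes, all 12 import genes and 65 of the 66 ribosomal proteins were higher, none of these lower. On that scale 79.6% of all genes tested were higher and 3.35% lower. In oocytes against whole animals 1 of these genes was called, idhg-2 at -2.99 ± 0.89 (adjusted p = 0.0438). Its mean was 1.03 CPM in whole animals and 0.126 in oocytes, where 3 counts correspond to 0.0592 to 0.149 CPM.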

How the data were processed

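RNA was measured in 9 libraries from 3 groups, built with Takara's SMARTer stranded pico kit from RNA extracted with an FFPE kit, per the labels' protocols. The authors deposited raw counts per gene, 1 column for each library, and a StringTie table with coverage, FPKM and TPM values per gene, per the file headers. TPM is scaled over all genes of that deposited table, and FPKM and coverage entered no test. HISAT2 2.1.0 and the build WBcel235 are named in the submitters' processing notes, as are StringTie, HTSeq and DESeq2 without a version. Coordinates are those of the deposited table, and 12 of the 38 genes have the same start and end in Ensembl release 115.

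Differences between groups were tested on the counts by the quasi-likelihood method of edgeR 4.0.16 in R 4.3.3. All 9 libraries entered 1 fit with TMM factors and no covariates, after edgeR's filter by group with a minimum count of 10 and a minimum total of 15. It kept 10162 genes, over which p-values were adjusted by Benjamini-Hochberg, and genes under 0.05 were called. Each log2 fold change divides the group named first by the other and carries its standard error. The script was tested on simulated counts. Alternatives were library totals, protein-coding totals, DESeq2 1.42.0, no filter, a mean count of at least 100, both groups alone, limma 3.58.1 on log2(TPM + 1) and log2(TPM + 0.1), a replicate block and leaving out each library. Values on scales that shifted the median gene by more than 0.1 were recentred on that gene, a step added after seeing the data. No 2 libraries of a group were identical or alike within sampling noise (chi-square per gene at least 4.3). Paralog ratios used exact permutation tests over libraries (scipy 1.17.1), and sums over complexes got no test. Any gene of the set could be named. Values in every library were given for the paralogs, gas-1, mev-1, isp-1, lpd-5, the most abundant gene of each complex in oocytes and the 3 largest called rises and falls of each comparison with at least 5 CPM. The genes and lists were chosen with earlier results of these data known.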

Additional observations from a re-analysis of the deposited data

How the results depend on the processing

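The direction of the calls rested on the scaling. For P-bodies against oocytes 3 genes were higher and 24 lower on the TMM scale, and 34 and 0 with library totals, log2(TPM + 1) or log2(TPM + 0.1). In P-bodies against whole animals the higher calls went from 5 to 36 with library totals and 35 on both TPM scales, with 0 lower on all 3. For oocytes against whole animals these scales gave 25, 16 and 17 higher and 0 lower. The stricter filter left 1 gene higher in P-bodies against oocytes and 2 against whole animals, and fitting 2 groups alone left 1 in the former. Protein-coding totals, DESeq2 and no filter each called 2 genes higher in oocytes against whole animals. Of the lower calls, 10 of 24 against oocytes and 10 of 25 against whole animals kept their call in every alternative run for single genes, as did 1 of 3 and 2 of 5 higher calls, 1 of the 2 lower calls in oocytes against whole animals and 32 of the 35 genes not called there. On log2(TPM + 1) relative to the median gene, and among genes called there or on the TMM scale, the direction turned in P-bodies against oocytes for mev-1 (0.0395), nuo-1 (0.15), sdhb-1 (0.46), nuo-6 (0.0906), nuo-3 (0.26), nuo-4 (0.17) and atp-4 (0.10). It turned in P-bodies against whole animals for asb-1 (0.0532), asg-1 (0.23), nuo-1 (0.31), sdhb-1 (0.77), atp-5 (0.0181), nduf-6 (0.64), nuo-3 (0.48), nuo-4 (0.41), atp-4 (0.33) and nduf-5 (0.79). Of the genes called on neither scale it turned for asg-1 (0.25), asg-2 (0.26) and cox-10 (0.08) in the former comparison, for nuo-6 (0.42) and ucr-11 (0.51) in the latter and for 8 of 34 in oocytes against whole animals. On log2(TPM + 0.1) relative to the median gene, 29 genes kept their result in P-bodies against oocytes and 8 lost their call, and no called gene turned. Before recentring, the median gene in that comparison stood at 1.62 on log2(TPM + 1) and 2.16 on log2(TPM + 0.1). The cause of the turns was not tested. Leaving out 1 library gave 1 to 3 higher and 21 to 24 lower in P-bodies against oocytes, 4 to 5 and 22 to 25 in P-bodies against whole animals, and 0 to 2 and 1 to 2 in oocytes against whole animals. Left-out libraries turned some small differences of paralog ratios: asg-2 over asg-1 in P-bodies against oocytes ran from -0.15 to 0.62, ucr-2.2 over ucr-2.1 from -0.56 to 0.15 there and from -0.0226 to 0.51 in P-bodies against whole animals, and ucr-2.3 over ucr-2.2 from -0.0167 to 0.15 in the latter.

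Replicate numbers shared by the groups gave correlations of deviations from -0.113 to 0.142, not all above 0.1, so the numbers were not taken as pairs. Between oocytes and P-bodies libraries of the same number gave 0.137, 0.0997 and 0.104, and those of different numbers from -0.173 to 0.0708. A pairing of oocyte and P-body libraries can therefore not be excluded. With a replicate block the calls were 3 higher and 23 lower in P-bodies against oocytes, 0 and 2 in oocytes against whole animals and 4 and 25 in P-bodies against whole animals.

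As a percentage of all counts in oocytes, P-bodies and whole animals in turn, ATP synthase took 0.0289, 0.0648 and 0.0184, complex I 0.0137, 0.0505 and 0.00853, complex II 0.00719, 0.0440 and 0.00399, complex III 0.00758, 0.0203 and 0.00519, complex IV assembly 0.00135, 0.00990 and 0.000733, and cytochrome c 0.00162, 0.00183 and 0.00108. As a percentage of protein-coding TPM they took 0.320, 0.143 and 0.314, then 0.167, 0.119 and 0.161, then 0.0732, 0.0795 and 0.0624, then 0.0804, 0.0412 and 0.0863, then 0.0178, 0.0251 and 0.0149, and 0.0441, 0.00952 and 0.0445. Depth limited cyc-2.2, cox-17 and asg-2, whose lowest counts were 0, 0 and 10.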

Other observations

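The respiratory chain genes are short. Their longest annotated transcripts had a median of 1026 bases over the 37 tested genes, from 281 to 2444, beside 1516 bases over 9622 tested protein-coding genes. Across genes, Spearman's rho between transcript length and the log2 fold change in P-bodies against oocytes was -0.302 over the 37 genes and -0.04 over the 9622, and genes measured in the same libraries are not independent replicates. Chromosome I held 11 of the 38 genes, or 28.9%, beside 14.4% of all protein-coding genes, and chromosome V held 4, or 10.5%, beside 25.1%. In P-bodies against oocytes the median log2 fold change was below that of all tested genes of the same chromosome on each of the 6 chromosomes, with -1.43 beside -0.18 on X and -0.04 beside 0.03 on chromosome II as the extremes. For cyc-2.2 the whole-animal libraries with 6, 0 and 6 counts had 3.38, 0.278 and 0.932 CPM summed over the 8 sperm markers. None of these markers had enough counts for a test, and a link between cyc-2.2 and sperm was not tested.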
